A study of Drosophila melanogaster with 11 samples.

Results

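The control RIP is the RNA that normal guinea pig serum, bound to protein A beads, brought down from extracts of Drosophila melanogaster embryos. It was compared here with the input, total RNA of the same kind of extract, which is 7 of the 11 arrays of the series: 4 control RIP arrays and 3 input arrays. The other 4 arrays measured the Smaug RIP, made in the same way with a guinea pig antibody against the RNA-binding protein Smaug. Embryos were 0 to 3 hours old, came from stocks kept at 25 °C, were wild type throughout and received no treatment; the labels give the strain Oregon-R, while the methods of the study name w1118. The control RIP was made in 3 biological replicates. Replicate 1 was measured on the arrays 1a and 1b, which were averaged, so that n = 3. The labels call the 3 input arrays technical replicates of an input reference total RNA, while a footnote of the study does not exempt the input when it calls its numbered replicates biological. They were treated here as technical.

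Arrays 1a and 2 of the control RIP carried Cy5, arrays 1b and 3 carried Cy3, all 3 inputs carried Cy3 and all 4 Smaug RIPs carried Cy5. By the starts of the image names, which are read here as slides, the control RIP arrays lay on 4 slides and only control RIP 2 shared the slide of the inputs. Control RIP 2 and input 2 were read as the 2 channels of 1 array, as were control RIP 3 and Smaug RIP 3, and Smaug RIP 2 and input 1. Both dyes were used only for replicate 1, on arrays 1a and 1b of different slides, so dye and slide cannot be told apart there. Each array reports 15433 transcripts, every one summarized over 1 to 5 probes. Of these, 7716 had a mean input log2 signal above the median of all transcripts and were kept as expressed. The last transcript left out had a mean of 6.85, as had the first one kept, so the filter cuts through a continuous range. The median log2 signal over all transcripts was 6.99 to 7.03 for the inputs and 7.30 to 7.35 for the control RIPs.

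An immunoprecipitation with non-immune serum has no antibody against the protein under study, and the RNA that it yields is the background against which bound mRNAs are called. RNA can reach the beads by sticking to the matrix, to the serum proteins or to other RNA and protein in the extract. An embryo of this age relies largely on mRNAs loaded by the mother, some of which are very abundant. The comparison therefore asks which embryo mRNAs the serum brought down and how far this followed their abundance.

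The mRNAs that were most abundant in the input were also the strongest in every control RIP. Below them, the signal followed abundance to a degree that differed widely between replicates. Signals were compared as ranks within each array, from 0 for the weakest to 100 for the strongest of the 7716 transcripts. Spearman's rho between a control RIP and the mean input rank was 0.71 in replicate 1, 0.44 in replicate 2 and 0.26 in replicate 3 (0.47 ± 0.23, SD, n = 3). These correlations run across transcripts that share arrays and probes, and are given as a description. On the single arrays rho was 0.60 for 1a, 0.70 for 1b, 0.44 for 2 and 0.26 for 3. The highest and the lowest of these values both came from Cy3 arrays. On the slide that control RIP 2 shared with the inputs, rho was thus 0.44, and each other slide held 1 control RIP and no input.

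Pearson's correlation of the log2 signals gave higher values in the same order of replicates, with 0.73 on array 1a, 0.80 on 1b, 0.65 on 2 and 0.50 on 3. The number of probes per transcript moved with rho only in part. For transcripts with 5 probes it was 0.58, 0.68, 0.40 and 0.22 on arrays 1a, 1b, 2 and 3, and for those with 1 to 3 probes 0.63, 0.72, 0.52 and 0.37. Array 3 was lowest and array 1b highest in either class.

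**Figure D1:**
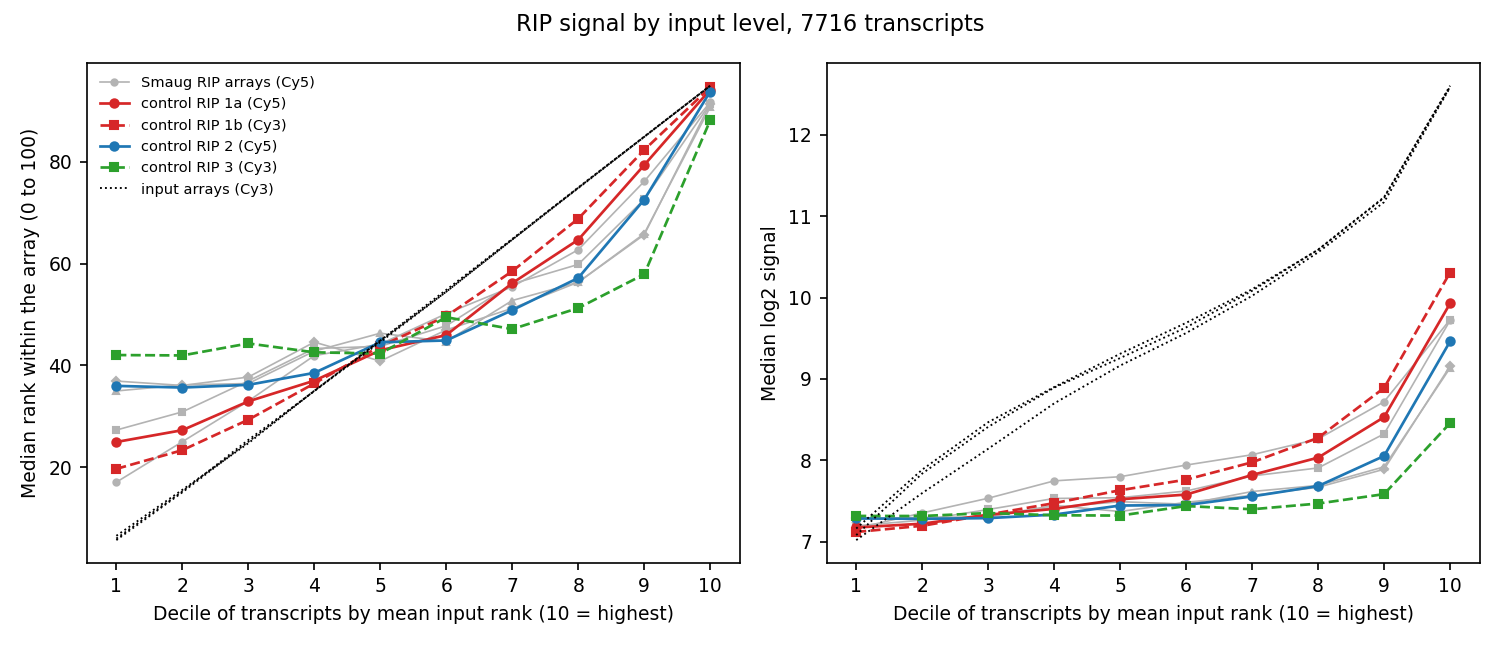
Median rank within the array (left) and median log2 signal (right) of the 7716 expressed transcripts, in deciles by mean input rank, for each control RIP array (colours), Smaug RIP array (grey) and input array (dotted). All control RIP arrays reach a median rank of 88.2 to 94.7 in the highest decile, while control RIP 3 stays between 41.96 and 57.9 in the other deciles.

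When the transcripts were split into deciles by mean input rank, the highest decile had a median rank of 94.2, 94.7, 93.9 and 88.2 on control RIP arrays 1a, 1b, 2 and 3. The lowest decile had median ranks of 24.9, 19.7, 36.0 and 42.04 on the same arrays, against 5.64 to 6.49 on the input arrays. The distance between the extremes was thus smallest on array 3. In the second highest decile the medians were still 79.4, 82.4 and 72.6 on arrays 1a, 1b and 2, but 57.9 on array 3. In log2 signal the highest decile lay above the lowest by 2.75 on array 1a, 3.19 on 1b, 2.17 on 2 and 1.14 on 3. The same deciles were 5.44 to 5.56 apart on the input arrays, so the RIP signals spanned a smaller range than the input signals. The sources used here do not say if RIP and input arrays were normalized as 1 set, so the main tests did not compare levels across them.

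**Figure D2:**
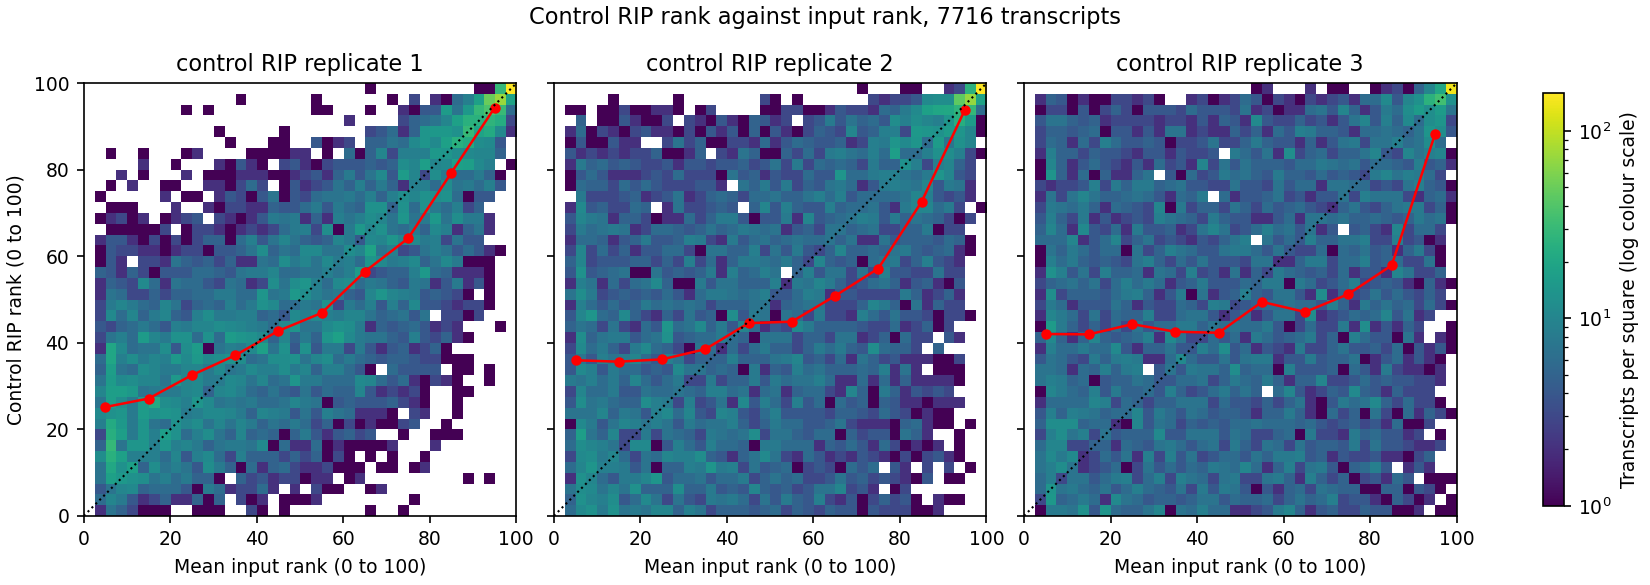
Control RIP rank against mean input rank for each of the 3 replicates, as the number of transcripts per square (log colour scale), with the median of each decile of input rank in red and equal ranks dotted. The most abundant mRNAs sit in the upper right corner of every panel, and the spread of ranks below them grows from a Spearman's rho of 0.71 in replicate 1 to 0.26 in replicate 3.

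The very top of the input was recovered almost whole. Of the 78 transcripts in the top 1% of input rank, 78, 78, 78 and 76 fell among the top 10% of control RIP arrays 1a, 1b, 2 and 3. Of the 772 transcripts in the highest decile of input, 542, 565, 481 and 354 were also among the top 10% of these arrays, or 70.2%, 73.2%, 62.3% and 45.9%. Conversely, 31, 10, 57 and 136 of the 772 ranked below 50 on the respective array. The upper end of the control RIP was thus made up mostly, but not wholly, of mRNAs abundant in the input on arrays 1a, 1b and 2, and less so on array 3.

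The control RIPs also matched each other mainly among abundant mRNAs. Across all 7716 transcripts the arrays 1a and 1b, which measured the same RNA with different dyes, had a Spearman's rho of 0.62. Between replicates it was 0.43 for 1a and 2, 0.46 for 1b and 2, 0.28 for 1a and 3, 0.33 for 1b and 3, and 0.29 for 2 and 3. Within the highest decile of input the 6 pairs of arrays had a rho of 0.71 to 0.91, and within the lower 5 deciles of 0.074 to 0.26. The pairs that shared a dye (1a with 2 and 1b with 3) had values of 0.43 and 0.33, within the range of the pairs that did not. Even between the technical replicates 1a and 1b, 30.5% of the transcripts differed by over 25 ranks, and between 1a and 3 this share was 46.5%.

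To see how many mRNAs gave a control RIP signal beyond the level of mRNAs that were scarce in the input, each array was read against its own 7717 transcripts below the filter. A transcript was counted as above this level where its signal exceeded their 95th percentile, so a share near 5% would be met by the scarce mRNAs themselves. The measure was chosen after the data were seen. On array 1a 33.6% of the expressed transcripts were above it, on 1b 43.5%, on 2 21.3% and on 3 12.4%. In the highest decile of input the shares were 92.7%, 98.1%, 78.8% and 50.5%, and in the lowest decile 8.17%, 8.04%, 6.49% and 6.74%. The signal of scarce and moderately abundant mRNAs was thus close to that of the transcripts below the filter on arrays 2 and 3, where 10.1% and 6.22% of the fifth decile were above it.

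All 4 control RIP arrays had 467 of the 7716 transcripts above this level (6.05%). Of these, 355 lay in the highest decile of input, which is 46.0% of its 772 transcripts, and 6 lay in the lower 5 deciles (0.156% of 3858). No control RIP array had a signal above the level for 3276 transcripts (42.5%), 5 of them in the highest decile. With the 99th percentile in place of the 95th, 288 transcripts were above it on all 4 arrays, 253 of them in the highest decile.

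**Figure D3:**
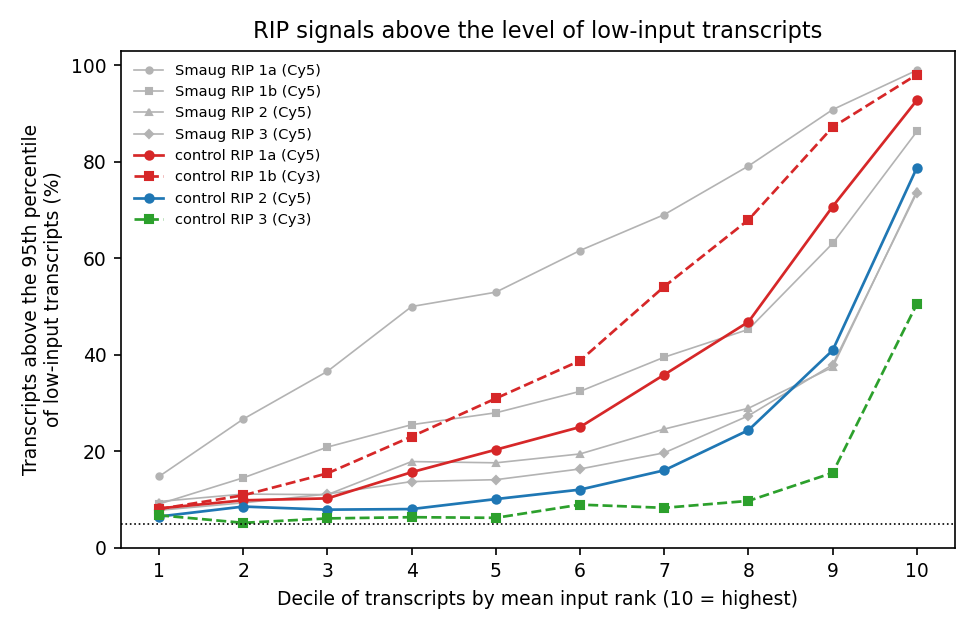
Share of expressed transcripts, in deciles by mean input rank, whose signal exceeded the 95th percentile of the transcripts below the filter on the same array, for the control RIP arrays (colours) and Smaug RIP arrays (grey); the dotted line marks 5%. The control RIP shares rise with input level to between 50.5% and 98.1% in the highest decile.

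The control and Smaug RIPs are set against the same 3 input arrays, so their values are given side by side. Spearman's rho with the input was 0.62, 0.40 and 0.39 in Smaug RIP replicates 1, 2 and 3 (0.47 ± 0.13, SD, n = 3). The mean difference from the control RIPs was 0.0017, with p = 1 in a two-sided exact permutation test of 3 against 3 replicates. By the image names, each control RIP array shared its slide with the Smaug RIP array of the same number. The exact test left out this pairing. The median rank of the highest decile of input was 92.1 ± 3.4 in the control RIPs and 91.0 ± 0.38 in the Smaug RIPs (SD, n = 3 each, p = 0.6, same exact test). That of the lowest decile was 34.4 ± 8.5 and 31.9 ± 7.0 (SD, n = 3 each, p = 0.6, same exact test). After Benjamini-Hochberg adjustment over these 3 exact tests the values were p = 1, 0.9 and 0.9, and the smallest p that 3 against 3 can give is 0.1. In both RIPs replicate 1 had the highest rho. It alone was averaged over 2 arrays, which can raise rho. Its single arrays 1a and 1b also had a higher rho (0.60 and 0.70 in the control RIP, 0.64 and 0.50 in the Smaug RIP) than the arrays of replicates 2 and 3. Shares of transcripts above the level of scarce mRNAs were 58.1%, 36.5%, 25.2% and 23.1% on Smaug RIP arrays 1a, 1b, 2 and 3, which overlap the 12.4% to 43.5% of the control RIP arrays. On all 4 Smaug RIP arrays 950 transcripts were above it (12.3%), against 467 on all 4 control RIP arrays, and 88 against 6 in the lower 5 deciles. These differences were not tested.

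Individual mRNAs whose rank changed from input to control RIP were then sought with limma and Benjamini-Hochberg adjustment over all 7716 transcripts. At an adjusted p under 0.05, 0 transcripts ranked higher and 0 lower (0% in either direction), while 701 and 776 had an unadjusted p under 0.05. This test found no simulated shift of known size, so its empty result carries no weight. Counted without a test, all 3 control RIP ranks exceeded all 3 input ranks for 1357 transcripts (17.6%) and lay below all 3 for 1468 (19%). The input ranks in these counts were treated as technical replicates. Noisy control RIP ranks are pulled towards the middle of the scale, which by itself sets many of them outside the input ranks. The share that such noise alone would give was not computed, so no conclusion is drawn from these counts.

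A second test took out a fitted trend of the signal on abundance. In each replicate a smooth trend of control RIP rank on input rank was fitted, and each transcript was given its departure from the trend. In ranks, 4 transcripts departed upwards (0.0518% of those tested) and 92 downwards (1.19%). On simulated data this test called too many unchanged abundant transcripts, and 16 of the 92 did not lie below the trend in all 3 replicates. The same test was therefore also read on log2 signals centred on each array's median, where it did well on simulated data. The simulated noise, however, had the same spread at every input level of an array, while the log2 departures in the data spread more widely among abundant mRNAs. The simulation therefore cannot show how well the test does there. On the log2 scale 58 transcripts lay above the trend (0.752%) and 46 below it (0.596%), and each of them lay on its side in all 3 replicates. In comparison, 1306 of all transcripts lay above the log2 trend in all 3 control RIP replicates (16.9%) and 1526 below it (19.8%). In all 3 Smaug RIP replicates, read against the same inputs, 47 of the 58 also lay above the trend and 41 of the 46 below it. The share of all transcripts on one side in all 3 Smaug RIPs was not computed. Scatter of the shared inputs also moves both RIPs to the same side, so these counts cannot show how far the departures themselves were shared.

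All 4 transcripts above the trend in ranks were among the 58, and 14 of the 92 below it were among the 46. The 58 had input ranks of 6.09 to 98.5 with a median of 83.8. The 46 were abundant mRNAs, with input ranks of 80.1 to 99.98 and a median of 97.7, and 40 of them ranked over 95. The log2 departures spread more widely among abundant mRNAs. Their SD was 0.41, 0.57 and 0.64 in replicates 1, 2 and 3 for the lowest decile of input and 0.89, 1.05 and 1.31 for the highest. Replicate 1 is the mean of 2 arrays, which narrows its spread against that of replicates 2 and 3. Without replicate 2 the log2 counts were 2 above and 0 below, and without replicate 3 they were 146 and 105. With medians of 20 bins in place of the smooth trend, 52 of the 58 and 25 of the 46 were still called.

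Of the 15433 transcript identifiers, 44 could be paired with gene names, and the others are known here by identifier only. The 4 identifiers without a name that are described are the 2 highest and the 2 lowest departures in ranks, so that their size is a consequence of the choice. The p-values given for them come from the same arrays and are no separate support. FBtr0081466 had input log2 signals of 7.98, 8.13 and 6.75, and control RIP signals of 8.89, 8.50, 8.78 and 9.37 on arrays 1a, 1b, 2 and 3. It ranked 14.7 in the input and 80.3, 88.4 and 95.9 in the 3 control RIP replicates. FBtr0074930 had input signals of 7.21, 8.84 and 9.17 and control RIP signals of 11.33, 9.83, 9.70 and 7.94.

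The input ranks of these 2 transcripts rested on widely scattered arrays, with an SD of the 3 input log2 signals of 0.76 for FBtr0081466 and 1.05 for FBtr0074930. The log2 departure of FBtr0081466 was 1.64 ± 0.26 (SE, limma, adjusted p = 0.0065), or 3.12 times the signal of the trend. That of FBtr0074930 was 2.05 ± 0.38 (SE, limma, adjusted p = 0.018). In the Smaug RIPs the log2 departures of FBtr0074930 were 1.95, -0.25 and -0.86, and in the control RIPs 3.20, 2.36 and 0.58.

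At the other end, FBtr0083375 had input log2 signals of 12.27, 12.07 and 12.22 and control RIP signals of 6.62, 7.02, 7.36 and 6.77 on arrays 1a, 1b, 2 and 3. It ranked 93.1 in the input and 9.71, 40.3 and 12.0 in the control RIP replicates. FBtr0100440 had input signals of 11.26, 11.50 and 11.35 and control RIP signals of 7.55, 6.56, 6.75 and 6.44. Its rank was 86.9 in the input and 23.3, 9.13 and 2.53 in the control RIP replicates. Both were thus abundant mRNAs whose signals did not exceed the level of scarce mRNAs on any control RIP array. Their log2 departures were -1.86 ± 0.36 and -1.47 ± 0.31 (SE, limma, adjusted p = 0.024 and 0.034).

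Of the 44 named transcripts, 17 matched 1 gene each, and 16 of those passed the filter. They spanned input ranks from 5.51 to 98.1. On the log2 scale 9 lay above and 7 below the trend on average, 2 were above and 3 below in all 3 replicates, and their median departure was 0.072. Over all 7716 transcripts, 16.9% were above and 19.8% below in all 3 replicates, and the median was -0.0073. The test called 1 of the 16 in log2 and 0 in ranks, against 104 and 96 of all 7716.

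**Figure D4:**
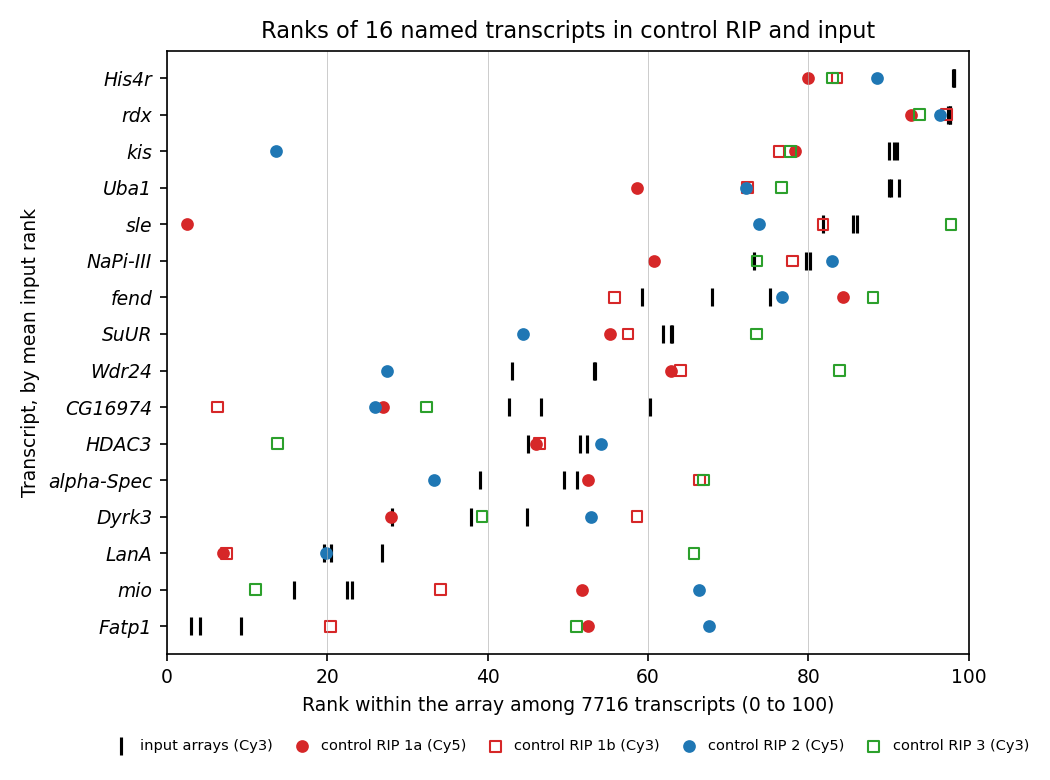
Rank within the array, among 7716 transcripts, of the 16 expressed transcripts paired with a single gene, ordered by mean input rank, on the 3 input arrays (bars) and the 4 control RIP arrays (filled, Cy5; open, Cy3). His4r lies at 79.9 to 88.5 on the control RIP arrays, below its input rank of 98.1, and several transcripts of middle rank spread over most of the scale.

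His4r, a histone H4 gene expressed outside the replication-dependent histone cluster, had the lowest log2 departure of the named transcripts. Its input log2 signals were 14.33, 14.28 and 14.36, and its control RIP signals 8.55, 8.98, 8.79 and 8.22 on arrays 1a, 1b, 2 and 3. All 4 control RIP arrays gave it a lower rank (79.9, 83.6, 88.5 and 83.0) than the input arrays did (98.0 to 98.1). Its log2 departure was -3.45, -3.23 and -2.85 in replicates 1, 2 and 3, a mean of -3.18 ± 0.34 (SE, limma, adjusted p = 8.9e-04), and its signal was 9.04-fold below that of the trend. In the Smaug RIPs, read against the same inputs, the departures were -2.999, -3.08 and -3.90.

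The call for His4r was lost without control RIP replicate 2, where the departure was -3.15 (adjusted p = 0.11), and without the filter on input, where it was -2.28 (adjusted p = 0.22). The departure was -2.09 with medians of 20 bins in place of the smooth trend. In ranks its departure was -7.17 ± 6.28 (SE, limma, adjusted p = 0.66). Whether its 4 probes separate it from the clustered histone H4 genes, which encode the same protein, is not stated in the sources used here.

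rdx, which encodes an adaptor of a Cullin-based ubiquitin ligase known for its part in Hedgehog signalling, had the highest input rank of the 16 after His4r (97.5). Its input log2 signals were 13.66, 13.81 and 13.92, and its control RIP signals 9.65, 11.38, 10.36 and 8.93. It was above the level of scarce mRNAs on all 4 control RIP arrays. Its log2 departures were -1.03, -0.89 and -1.33 in the control RIPs (mean -1.08 ± 0.34, SE, limma, adjusted p = 0.16). With the Cy5 arrays alone the mean was -1.30 and passed the test (limma, adjusted p = 0.011). In the Smaug RIPs they were 1.497, 1.41 and 1.45. On the rank scale its control RIP departure had the other sign, with 4.54 ± 6.40 (SE, limma, adjusted p = 0.79). Over the top 5% of input, however, the median departure in ranks was itself above 0, at 1.60, 3.97 and 11.2 in control RIP replicates 1, 2 and 3. The sign in ranks therefore does not set rdx above mRNAs of like abundance.

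Among mRNAs of chromatin proteins, kis, which encodes a chromatin remodeller, had an input rank of 90.6. Its control RIP log2 signals were 8.48, 8.57, 6.86 and 8.05 on arrays 1a, 1b, 2 and 3. Replicate 2 set it at rank 13.7, where the other arrays set it at 76.3 to 78.4. SuUR, a suppressor of replication in polytene chromosomes, had an input rank of 62.6 and control RIP ranks of 56.4, 44.4 and 73.5 in the 3 replicates. HDAC3, a histone deacetylase, ranked 49.7 in the input and 46.3, 54.1 and 13.8 in the control RIPs. None of the 3 passed the test on either scale, with log2 departures of -0.69, 0.13 and -0.15. For kis the value rested on single replicates. The SD of its ranks over the 3 replicates was 36.9. Limma gave its rank departure an SE of 8.41, as it pools the spread of transcripts of like input level. Its p-values in ranks thus do not measure its own scatter alone. Its log2 departure was -0.22 without control RIP replicate 2 and -1.14 without replicate 3 (limma, adjusted p = 0.88 and 0.12). In ranks its departure was -21.8 (limma, adjusted p = 0.25), 0.096 without replicate 2 (adjusted p = 1.00) and -36.7 without replicate 3, where it passed the test (adjusted p = 8.9e-07).

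NaPi-III, a sodium-dependent phosphate transporter, had control RIP log2 signals of 7.93, 8.65, 8.44 and 7.93 and an input rank of 77.7. Its log2 departures were -0.0068, 0.63 and 0.40 in the control RIPs and 2.03, 2.26 and 1.00 in the Smaug RIPs. Uba1, the ubiquitin-activating enzyme, had an input rank as high as that of kis (90.5) and control RIP signals of 7.88, 8.40, 8.04 and 8.02. These were above the level of scarce mRNAs on 1 control RIP array of 4.

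sle, which encodes a nucleolar protein, showed the widest scatter of log2 signals among the 16, with control RIP values of 6.56, 8.86, 8.09 and 10.49. The arrays 1a and 1b, which measured the same RNA, set it at ranks 2.56 and 81.8. LanA, a laminin subunit of the basement membrane, ranked 22.3 in the input and had control RIP signals of 6.75, 6.80, 6.99 and 7.74. Fatp1, a fatty acid transport protein, had the lowest input rank of the 16 (5.51) and control RIP signals of 7.73, 7.13, 7.92 and 7.46, which were above the level of scarce mRNAs on no array. The remaining 7 transcripts (fend, alpha-Spec, mio, CG16974, Wdr24, Dyrk3 and, below the filter, CG31178) had mean control RIP log2 signals of 7.08 to 8.33.

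Another 27 identifiers were paired with more than 1 gene, most of them as an upstream and a main reading frame of 1 mRNA, and 25 of them were expressed. Their median log2 departure was 0.13, against -0.0073 over all transcripts. In all 3 replicates 7 of the 25 were above the log2 trend and 3 below it, where the shares over all transcripts were 16.9% and 19.8%. The test in log2 called 1 of them, against 104 of all 7716. This group was added after its values were seen.

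The mRNA of CG31917 and Tfb5, a subunit of the transcription factor TFIIH, had input log2 signals of 11.30, 10.78 and 11.20. Its control RIP signals were 9.50, 10.26, 9.84 and 9.15, above the level of scarce mRNAs on all 4 arrays. It ranked 83.1 in the input and 93.2, 95.3 and 94.99 in the control RIP replicates, all above its 3 input ranks of 78.3 to 86.4. Its log2 departure was 1.31, 1.85 and 1.55, a mean of 1.57 ± 0.31 (SE, limma, adjusted p = 0.025), or 2.96 times the signal of the trend. The Smaug RIPs gave 0.99, 0.90 and 1.36. The departure stayed between 1.43 and 1.70, but the call was lost, with either dye alone, without the filter, and without control RIP replicate 1 or 2 (limma, adjusted p from 0.053 to 0.34).

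Tim10 with CG42497, which includes a chaperone of mitochondrial protein import, and ND-MNLL with CG45089, which includes a subunit of respiratory complex I, were the other mRNAs of this group above the level of scarce mRNAs on all 4 arrays. Tim10 with CG42497 had control RIP log2 signals of 10.62, 10.82, 10.28 and 8.47 at an input rank of 93.9. Those of ND-MNLL with CG45089 were 11.28, 11.52, 11.36 and 8.54 at an input rank of 96.5. In both, replicate 3 was the lowest. Their log2 departures were 0.83 and 0.39 (limma, adjusted p = 0.28 and 0.69).

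**Figure D5:**
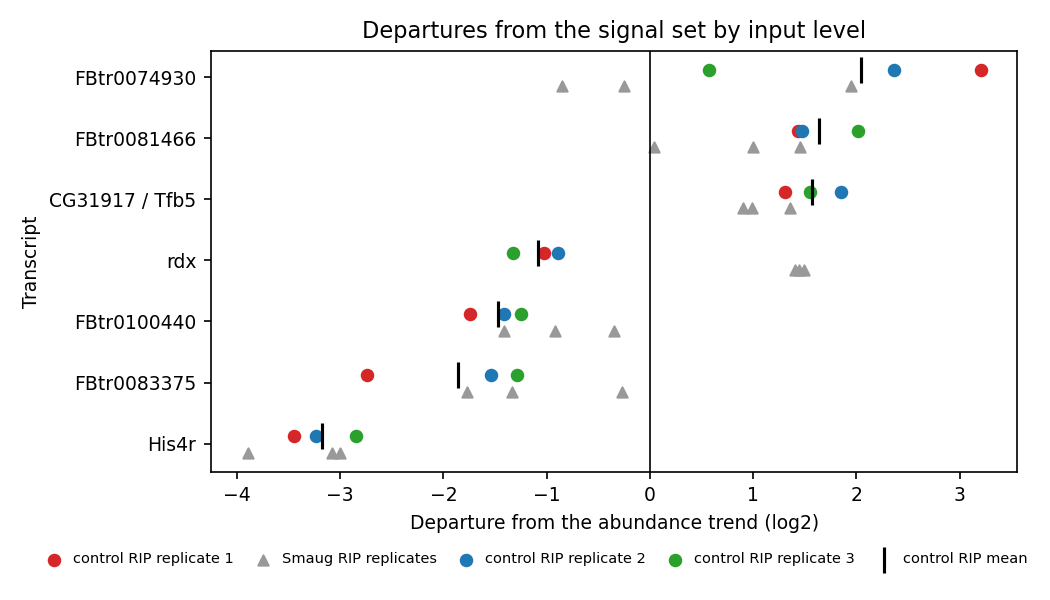
Departure of 7 transcripts from the log2 signal that the trend on input level gives, for the 3 control RIP replicates (coloured points, with their mean as a bar) and the 3 Smaug RIP replicates (grey). His4r lies between -3.45 and -2.85 in the control RIPs, CG31917 / Tfb5 between 1.31 and 1.85, and rdx lies below 0 in the control RIPs and above 0 in the Smaug RIPs.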

How the data were processed

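Signals from 4 control RIP, 3 input and, for values side by side, 4 Smaug RIP arrays (NimbleGen) were used. cDNA was primed with anchored oligo(dT). Normalization by the authors was with RMA and its quantile step. They deposited log2 values for the inputs and linear intensity values for the RIPs, of which log2 was taken here. The aligner of probes and genome build are not given in the sources used here. The files hold no counts, so the number of arrays limits the precision. The p-values from limma rest on the spread between 3 replicates, drawn by eBayes towards that of transcripts of like input level. For a single transcript they can be smaller than its own scatter would give.

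Ranks, lowess trends (span 0.3) and departures were tested with limma 3.58.1 in R 4.3.3 (one-sample fit of 3 replicates against the mean input, eBayes with a trend, Benjamini-Hochberg adjustment, calls under 0.05), and tested on simulated data. Correlations and exact permutation tests used scipy 1.17.1. The naming rule took every identifier that the RefSeq gene table (Release 6) paired with a single gene. Identifiers paired with several genes were added outside the rule, after their values were seen. Of those without a name, the 2 highest and 2 lowest departures in ranks called on the same side in all 3 replicates were described. The members, lists and tests were chosen with earlier results of these data known. Alternatives changed the arrays, dye, inputs, replicates, scale, filter, smoother and test.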

Additional observations from a re-analysis of the deposited data

Results flagged for a closer look

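Among the transcripts named here, 2 lay on one side of the abundance trend in all 3 control RIPs and on the other side in all 3 Smaug RIPs. For rdx, the mean log2 departure in the control RIPs minus that in the Smaug RIPs was -2.53. For the mRNA of CG42516 and Pbp49, a subunit of a factor that acts on small nuclear RNA genes, it was 0.89, with 0.22, 0.80 and 0.14 in the control RIPs and -0.40, -0.84 and -0.28 in the Smaug RIPs. The differences were not tested here, and both RIPs are read against the same inputs. Over all 7716 transcripts, 262 (3.40%) showed such opposite sides.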

How the results depend on the processing

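Mean rho with the input (0.47) moved by less than the SD of the replicates under every alternative run, from 0.40 without a filter to 0.65 as Pearson's correlation, and from 0.35 to 0.58 when 1 control RIP replicate was left out.

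The count of rank changes was 0 in each direction under the alternatives run except 3. Limma with 2 groups gave 42 higher and 68 lower, normal scores 2 and 24, and centred log2 signals 2473 and 1608. The fit with 2 groups counted the 3 input arrays, treated here as technical replicates, as separate samples. The counts on centred log2 signals are differences in level, not in rank. They cannot be told apart from the smaller range of the RIP signals. Departures in ranks (4 above, 92 below) depended on most settings. They numbered 0 and 4 with Cy3 arrays alone, 0 and 49 with Cy5 arrays alone, 0 and 1 with 2 groups, 2 and 33 as normal scores, 58 and 46 in log2, 0 and 42 without a filter, 0 and 13 with a span of 0.1, and 0 and 0 with 20 bins or without a trend in eBayes (405 and 545 at an unadjusted p under 0.05 in the fit with a trend). The filter at the 33rd percentile gave 2 above and at the 67th 1 above and 32 below, and 4 separate arrays gave 35 below. Fits on 4 separate arrays, here and in log2 below, counted the technical replicates 1a and 1b as independent samples. Leaving out 1 control RIP replicate gave 0 to 15 above and 4 to 176 below, and leaving out 1 input 4 to 5 above and 84 to 90 below.

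Departures in log2 (58 above, 46 below) numbered 228 and 94 with 20 bins, 155 and 108 with 4 separate arrays, 17 and 5 with Cy3, 142 and 102 with Cy5, and 15 and 0 without a filter, and 76 lay below without a trend in eBayes. The 228 and 94 with 20 bins held 52 of the 58 and 25 of the 46. Leaving out 1 control RIP replicate gave 2 to 146 above and 0 to 105 below, and leaving out 1 input 51 to 73 above and 46 to 51 below. In each case the cause was not tested.

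Of the same-numbered inputs and control RIPs, only input 2 and control RIP 2 were read as sharing an array, and nothing in the labels pairs the others. The deviations of replicates 1, 2 and 3 correlated at 5.3e-04, 0.047 and -0.032. With a replicate block, departures in ranks were 5 above and 90 below, those in log2 29 and 27, and rank changes 0 and 0.

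None of the 4 identifiers changed sign. Of the alternatives run, FBtr0081466 passed the test in 9 of 19, FBtr0074930 in 8 of 19, FBtr0083375 in 17 of 20 and FBtr0100440 in 18 of 20. Of 85 recomputed log2 levels of 17 named transcripts, 81 stayed within 1 SD, and those of fend and Uba1 with 1a or 1b alone did not.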
